A study of Mus musculus with 20 samples.

Results

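The genes described here encode the subunits of the mitochondrial respiratory chain and of ATP synthase. They were taken by gene symbol: every probe set of the array with 1 gene symbol of the Nduf, Sdh, Uqcr, Cox4 to Cox8 or Atp5 families. This gave 135 probe sets of 45037, for 79 genes: 32 of complex I, 4 of complex II, 7 of complex III, 19 of complex IV and 17 of complex V. Of the 79 genes, 8 are tissue or alternative isoforms of complex IV or its relatives (Cox4i2, Cox6a2, Cox6b2, Cox7a1, Cox7b2, Cox8b, Cox8c and Ndufa4l2), 70 are common subunits, and Ndufs5-ps carries a pseudogene's name. A filter on low signals passed 123 of the 135 probe sets; 77 genes were tested, and Cox4i2 and Cox7b2 were not.

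The respiratory chain passes electrons from NADH (complex I) and succinate (complex II) through complex III to oxygen at complex IV, and complex V uses the proton gradient to make ATP. Most subunits are encoded in the nucleus and made in every cell that respires. Several small subunits of complex IV exist as a widely used form and a form restricted to tissues: Cox6a2, Cox7a1 and Cox8b are known from heart and skeletal muscle, Cox7a1 and Cox8b also from brown fat, and Cox6b2, Cox7b2 and Cox8c from testis.

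The study set a mouse model of CIC-DUX4 sarcoma (CDS) beside Ewing sarcoma (ES) and the cells from which the CDS tumors were raised. Embryonic mesenchymal cells (eMC) had received, by spinofection, a pMYs retrovirus carrying CIC-DUX4 and, after an IRES, GFP (eMC CIC-DUX4, 4 arrays), or the same vector with GFP alone (eMC empty, 4 arrays), and were sampled after 48 h. The 6 CDS tumors grew under the skin of Balb/c nude mice from eMC transduced with CIC-DUX4, and 6 mouse ES tumors, whose fusion gene and cell of origin the labels do not give, grew under the skin of such mice too. Tumors received no treatment, and the age of the mice is not given. A tumor array can also hold RNA of host cells. Whether arrays of 1 eMC group come from separate cultures is not stated, so p-values measure the spread between these samples, which may be technical.

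Values are log2(signal + 1.42305). All 20 arrays carry a trimmed mean signal of 500.1 to 500.3, but their distributions differ in shape. Fold changes are therefore on the deposited scale unless another is named. Those marked quantile follow quantile normalization, which forces all arrays onto a common distribution. Where no quantile value is given, the result is stated for the deposited scale only. A gene was called where limma's adjusted p (Benjamini-Hochberg over 12343 genes) was under 0.05 and the change at least 2-fold. The dip of an array is the lowest density between its dim and its bright signals; eMC CIC-DUX4 6 has none. Array medians were 1.85 to 3.88, apart from CDS 2 (5.63), eMC CIC-DUX4 5 (6.10) and eMC CIC-DUX4 6 (7.03). The Actb control probe sets at the 3' end exceeded those at the 5' end, as they do more in degraded RNA, by 0.31 to 1.28 in CDS tumors, 0.17 to 0.31 in ES tumors, 0.19 to 0.23 in eMC CIC-DUX4 and 0.13 to 0.20 in eMC empty. Of 8 mesenchymal markers, Vim was bright on every array (13.60 to 16.76), while Col1a2 and Twist1 lay below the dip on all ES arrays and Col1a2 on all eMC empty arrays. Of 4 Ewing sarcoma markers, Ccnd1 was 12.72 to 13.84 and Prkcb 2.14 to 10.14 in ES tumors. Among ES tumors Nkx2-2 exceeded the dip only in ES 41 (5.82), and Nr0b1 lay below it on all 6 ES arrays. The summed signal of the 4, log2, was 12.80 to 13.87 in ES tumors and 14.57 to 16.68 in CDS tumors. It was 13.04 to 13.60 in eMC empty and 12.70 to 13.01 in eMC CIC-DUX4, so it did not set the ES tumors apart.

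Cox6b2 had the largest increase of the 77 tested members in CDS tumors, against each of the other 3 groups, and in eMC CIC-DUX4 against eMC empty. It encodes the testis form of subunit 6b, which sits on the face of complex IV toward the intermembrane space. In the CDS tumors 1 to 6 its log2 signal was 13.07, 12.39, 12.26, 12.20, 12.50 and 12.24. In ES 41, 46, 47, 48, 49 and 51 it was 3.41, 2.60, 2.36, 2.81, 2.67 and 6.79. In eMC CIC-DUX4 5 to 8 it was 9.23, 9.23, 8.87 and 8.64, and in eMC empty 4 to 7 it was 3.33, 3.46, 3.17 and 2.73. Every CDS array lay above every eMC CIC-DUX4 array, and every eMC CIC-DUX4 array above every ES and eMC empty array. In eMC empty all 4 arrays, and among ES tumors 5 of 6, lay below their dip; ES 51 stood apart from the other ES tumors.

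**Figure D1:**
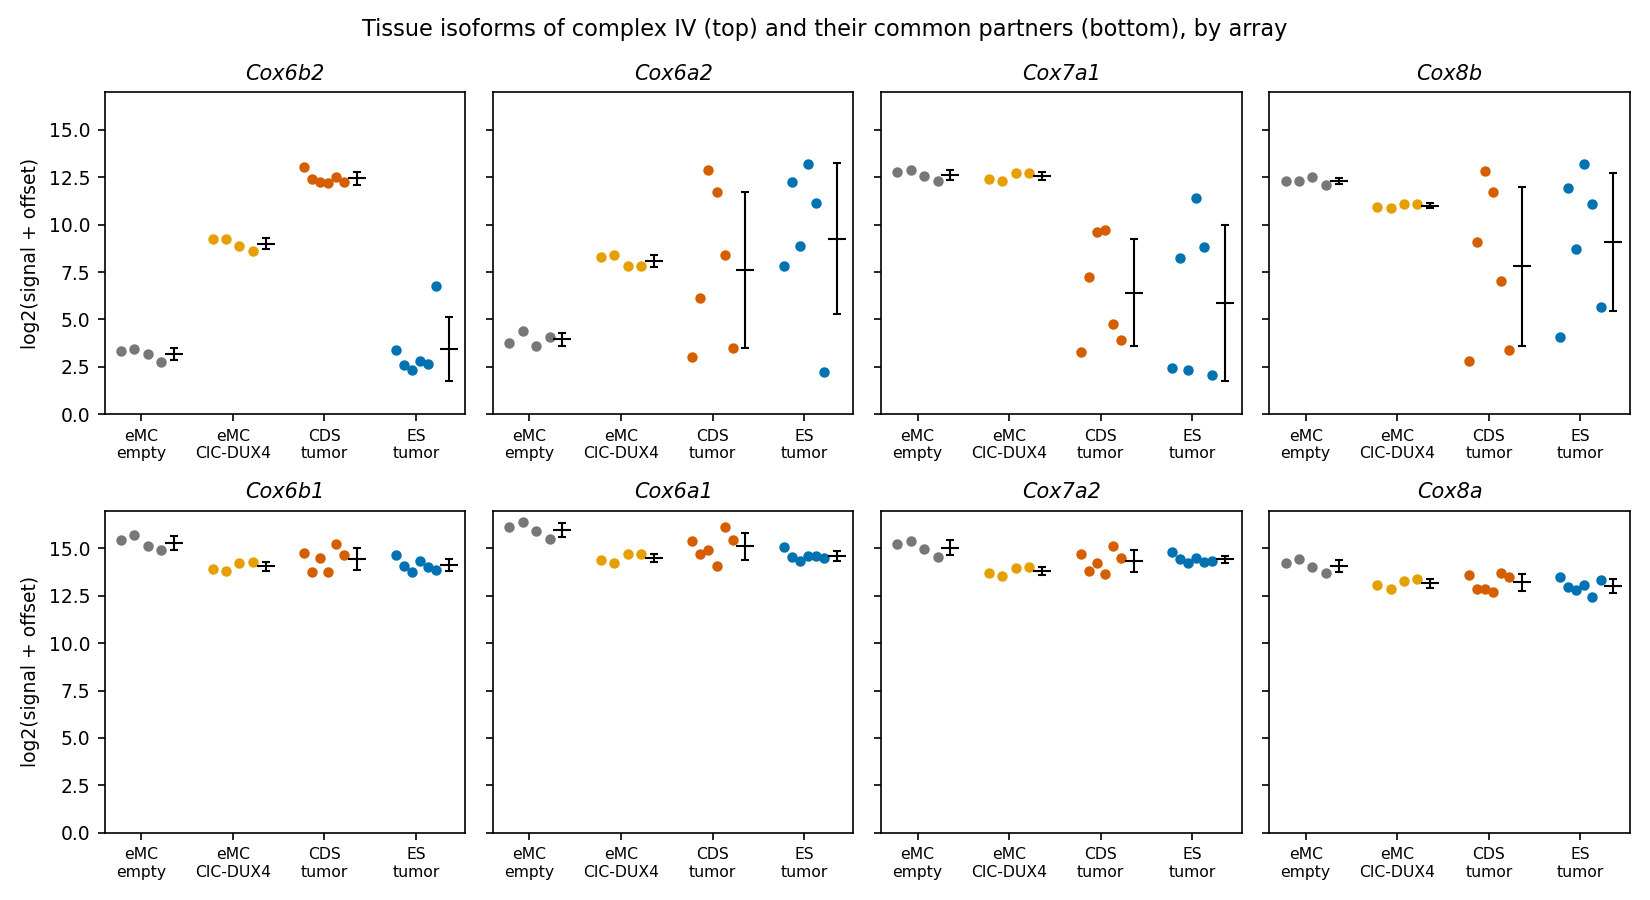
Log2(signal + offset) of 4 tissue isoforms of complex IV (top) and of the common form of the same subunit (bottom); each point is 1 array, and the bar to the right of each group is its mean with the SD. Cox6b2 lies between 12.20 and 13.07 in the 6 CDS tumors, while Cox6a2, Cox7a1 and Cox8b spread widely within both kinds of tumor and the common forms stay bright everywhere.

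In eMC CIC-DUX4 against eMC empty, Cox6b2 was higher by 5.82 ± 0.33 (log2, SE; quantile 3.8 ± 0.20), with an adjusted p of 8.28e-06 from limma, and on the deposited scale at least 4.39-fold higher when dim arrays are held at their dip. With each array shifted to the same median, this call ended (4.26, adjusted p = 0.170). In CDS tumors it was higher than in eMC empty by 9.27 ± 0.60 (quantile 8.54 ± 0.24; adjusted p = 9.86e-09), at least 48.0-fold. Against ES tumors the difference was 9.0 ± 0.78 (quantile 8.56 ± 0.39; adjusted p = 3.65e-07). Against eMC CIC-DUX4 it was 3.45 ± 0.30 (quantile 4.74 ± 0.20; adjusted p = 6.03e-06). ES tumors and eMC empty differed by 0.27 ± 0.74 (quantile -0.01 ± 0.43; adjusted p = 0.770), which misses the threshold. Log2 differences against eMC empty and ES tumors rest on signals below the dip and so have no exact size.

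The common form, Cox6b1, moved little beside this: its mean was 15.29 ± 0.35 in eMC empty, 14.06 ± 0.24 in eMC CIC-DUX4, 14.44 ± 0.60 in CDS tumors and 14.12 ± 0.32 in ES tumors (SD, n = 4, 4, 6 and 6). The log2 signal of Cox6b2 minus that of Cox6b1 on the same array was -12.12 ± 0.12 in eMC empty, -5.07 ± 0.52 in eMC CIC-DUX4, -2.0 ± 0.56 in CDS tumors and -10.67 ± 1.76 in ES tumors. Probe sets differ in brightness, so this shows the unequal change of the 2 genes and not the ratio of their messages. Of 8 germ cell markers such as Ddx4 and Dazl, 8 lay below the dip on every CDS, ES and eMC empty array and 5 on every eMC CIC-DUX4 array with a dip. Their summed signal, log2, was 4.06 to 5.79 in CDS tumors, 3.93 to 5.12 in ES tumors, 3.91 to 8.97 in eMC CIC-DUX4 and 4.58 to 5.32 in eMC empty.

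The promoters of Cox6b2 and Cox6b1 are shown because the isoform and its partner differed so much in these cells, and that of Cox6a1 because it holds both motifs described below. They run from 250 bases before to 50 after the gene's start (RefSeq, GRCm38.p6), with motif matches in capitals. Each is written 5′ to 3′ on the minus strand of the chromosome, which is the sense strand of these genes.
Cox6b2, chr7:4753045-4753344: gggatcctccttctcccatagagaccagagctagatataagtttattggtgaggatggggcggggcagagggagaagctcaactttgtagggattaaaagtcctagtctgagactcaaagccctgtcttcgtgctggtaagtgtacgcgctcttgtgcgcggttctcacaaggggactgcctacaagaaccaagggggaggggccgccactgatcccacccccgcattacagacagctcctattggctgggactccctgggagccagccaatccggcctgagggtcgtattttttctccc
Cox6b1, chr7:30626065-30626364: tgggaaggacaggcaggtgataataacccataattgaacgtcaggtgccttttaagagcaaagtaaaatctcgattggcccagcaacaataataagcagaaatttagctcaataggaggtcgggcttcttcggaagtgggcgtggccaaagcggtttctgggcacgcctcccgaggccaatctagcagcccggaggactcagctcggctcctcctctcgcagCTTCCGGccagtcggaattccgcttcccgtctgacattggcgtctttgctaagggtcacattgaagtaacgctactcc
Cox6a1, chr5:115348909-115349208: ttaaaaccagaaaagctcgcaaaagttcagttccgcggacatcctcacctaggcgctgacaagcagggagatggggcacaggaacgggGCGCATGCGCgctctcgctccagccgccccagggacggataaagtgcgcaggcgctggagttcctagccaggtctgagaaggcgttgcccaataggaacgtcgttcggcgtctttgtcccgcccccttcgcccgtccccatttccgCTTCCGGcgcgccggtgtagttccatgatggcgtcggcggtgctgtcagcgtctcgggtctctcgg

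Cox6b2 itself lies at chr7:4751792-4753094 and Cox6b1 at chr7:30616971-30626114. Promoters of 63 member genes matched. The motif of NRF-1, an activator of many respiratory genes, is the first run of capitals in the Cox6a1 window and reads the same on both strands; it was in 5 of 63 members (7.94%) and in 1.07% of the promoters of 27025 genes; the 5 were Atp5g2, Atp5k, Cox6a1, Ndufa11 and Uqcrc1. The ETS and GABP motif CCGGAAG, or CTTCCGG on the other strand, was in 15 of 63 (23.8%) against 9.93%. The octamers that CIC binds, TGAATGAA and TGAATGGA on either strand, were each in 1 member promoter (1.59%, against 1.50% and 1.40%): Ndufc1 and Cox8a. The Cox6b2 window held none of these 4 motifs, and neither did those of Cox7a1, Cox7b2, Cox8b and the common form Cox7a2. Each motif is absent from most promoters, so this does not set Cox6b2 apart.

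By Pearson correlation of log2 signals over the 20 arrays, the 5 tested genes most like Cox6b2 were Aldoc (0.98), Cyp26b1 (0.97), Itga8 (0.97), Unc5c (0.97) and Bmp5 (0.95). These values describe a pattern that the 4 groups set, and points of a group share their cells. Aldoc, a glycolytic aldolase of brain, had means of 14.32 in CDS tumors, 8.17 in eMC CIC-DUX4, 3.34 in ES tumors and 3.14 in eMC empty.

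The muscle and heart forms behaved otherwise: they varied among tumors of the same kind. Cox6a2 had log2 signals of 3.03, 6.13, 12.88, 11.71, 8.39 and 3.5 in CDS 1 to 6, and of 7.83, 12.24, 8.86, 13.20, 11.15 and 2.25 in ES 41, 46, 47, 48, 49 and 51. Cox8b had 2.80, 9.09, 12.83, 11.72, 7.01 and 3.37 in the CDS tumors and 4.07, 11.92, 8.70, 13.22, 11.09 and 5.63 in the ES tumors. Both were highest in CDS 3 and 4 and in ES 46, 48 and 49.

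Skeletal muscle markers moved with these levels. The summed signal of 12 markers, log2, was 18.59, 17.25 and 17.81 in CDS 3, 4 and 5 against 9.11, 10.55 and 11.20 in CDS 1, 2 and 6. In ES 46, 48 and 49 it was 17.61, 18.24 and 16.92, in ES 41 and 47 14.45 and 15.15, and in ES 51 4.74. No marker lay below the dip on all CDS or all ES arrays. In eMC empty, 9 of the 12 lay below it on every array, and in eMC CIC-DUX4 2 did on every array with a dip. The sums of eMC empty thus come from few of the markers. The part of host muscle in the isoform levels was not tested, and fewer cells of a type cannot be told from less RNA per cell in bulk tissue. CDS 5 had a high sum with lower Cox6a2 and Cox8b than CDS 3 and 4.

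**Figure D2:**
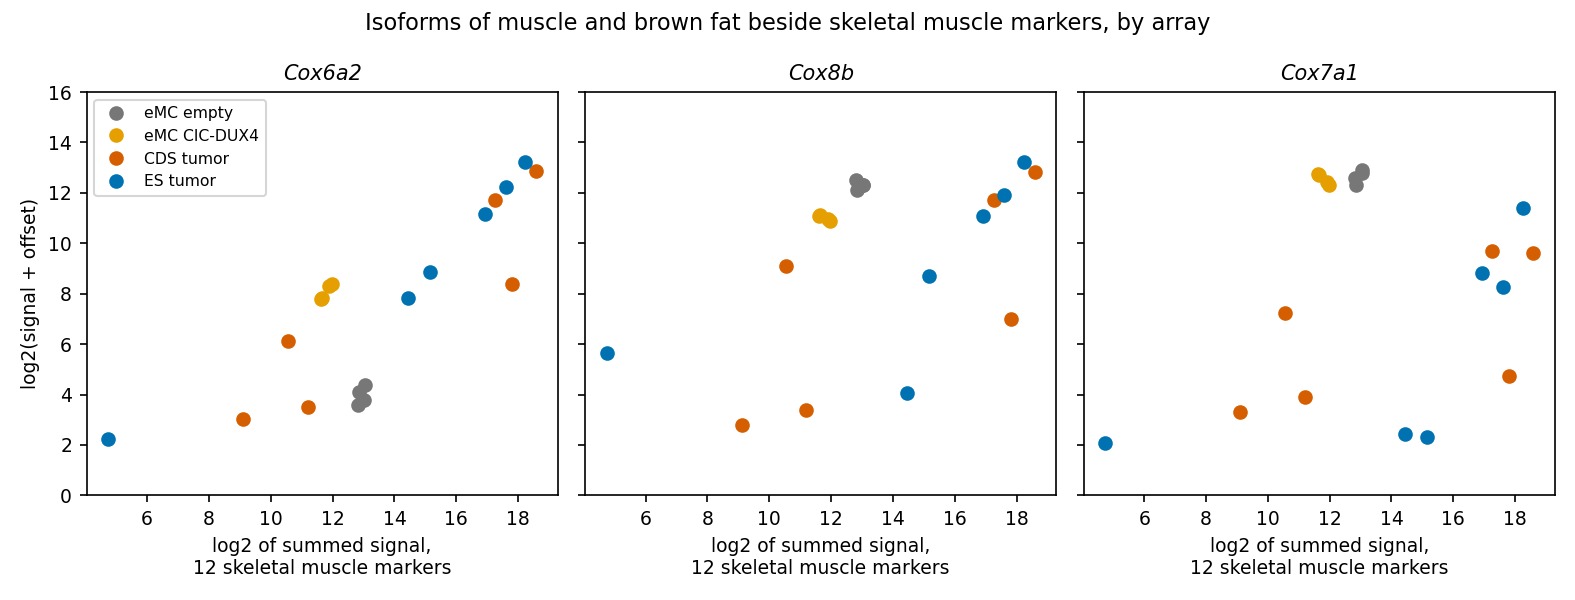
Log2(signal + offset) of Cox6a2, Cox8b and Cox7a1 (vertical) against the log2 summed signal of 12 skeletal muscle markers (horizontal), 1 point per array, coloured by group. Among tumors, Cox6a2 and Cox8b are highest where the marker sum is 16.92 or more, except in CDS 5; the eMC arrays hold bright Cox7a1 and Cox8b at sums of 11.62 to 13.03.

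Between tumor kinds no difference of these isoforms passed the test: CDS minus ES was -1.65 ± 1.84 for Cox6a2 (adjusted p = 0.529), -1.30 ± 1.78 for Cox8b (adjusted p = 0.618) and 0.54 ± 1.73 for Cox7a1 (adjusted p = 0.844, all limma). Standard errors of this size leave room for changes of several-fold in either direction. Cox6a2 was called higher in ES tumors than in eMC empty (5.29 ± 1.75, adjusted p = 0.0242), but not by quantile (3.22 ± 1.68, adjusted p = 0.135); ES 51 lay below every eMC empty array. Without ES 49 or eMC empty 4 this call ended, with adjusted p = 0.0501 and 0.0535.

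In the cultured cells Cox7a1 and Cox8b were bright. Cox7a1, the muscle and brown fat form of subunit 7a, was 12.77, 12.90, 12.58 and 12.31 in eMC empty and 12.43, 12.31, 12.73 and 12.75 in eMC CIC-DUX4. The groups overlapped, and the difference of -0.09 ± 0.17 (adjusted p = 0.649) missed the threshold; by quantile it was 0.61 ± 0.04, under 2-fold. In CDS tumors Cox7a1 was 3.31, 7.25, 9.60, 9.71, 4.74 and 3.91, lower than in eMC empty by 6.22 ± 1.15 (log2 fold change -6.22, quantile -6.29; adjusted p = 0.00101). ES tumors, at 2.43, 8.25, 2.32, 11.41, 8.80 and 2.06, also lay below every eMC empty array (-6.76 ± 1.75, quantile -6.47; adjusted p = 0.00714). Against eMC CIC-DUX4, Cox7a1 in CDS tumors was lower as well (-6.13 ± 1.19, quantile -6.90; adjusted p = 0.00300), a call that ended with the median shift (-5.28, adjusted p = 0.0624).

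Of 4 brown fat markers, Cidea and Ucp1 were lower in both kinds of tumor. Cidea, a lipid droplet protein, was at least 12.01 on the 8 eMC arrays and 2.04 to 3.33 on the 12 tumor arrays. Ucp1, the uncoupling protein of brown fat, was 11.33 to 12.17 in eMC and 1.80 to 3.27 in tumors. Cpt1b, which brings fatty acids into mitochondria, was 5.44 to 9.85 in eMC and 1.81 to 8.86 in tumors, and Elovl3, a fatty acid elongase, was dim in all groups (2.76 to 3.31 in eMC empty, 2.23 to 6.94 in eMC CIC-DUX4, 2.87 to 5.39 in CDS and 2.19 to 3.94 in ES tumors). As deposited 2 of the 4 were called lower and 0 higher in CDS tumors against eMC empty, and 3 and 0 by quantile. The summed signal of the 4, log2, was 13.16 to 13.44 in eMC empty and 13.11 to 13.43 in eMC CIC-DUX4. It was 4.43 to 8.20 in CDS tumors and 3.38 to 8.93 in ES tumors. Cidea and Ucp1 gave most of this sum in eMC. In tumors they reached only 3.33 and 3.27, while Cpt1b reached 8.86. Ucp1 and Cidea lay below the dip on every tumor array, and their part in the Cox7a1 result was not tested. Cox8b, the muscle and brown fat form of subunit 8, was 12.32, 12.31, 12.51 and 12.10 in eMC empty and 10.95, 10.87, 11.10 and 11.09 in eMC CIC-DUX4, without overlap. It was lower in eMC CIC-DUX4 on both scales (-1.31 ± 0.16, quantile -1.0 ± 0.06; adjusted p = 0.000134). The call ended in a fit of all 4 groups together (adjusted p = 0.539), which shares the wide spread of the tumors, and with the median shift (-2.87, adjusted p = 0.230). In CDS tumors Cox8b was called lower than in eMC empty (-4.51 ± 1.54, adjusted p = 0.0458; quantile -3.98, adjusted p = 0.0810), a call that ended without any of CDS 1, 2, 5 and 6 or of the 4 eMC empty arrays.

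The remaining isoforms were dim in eMC empty. Cox8c, a testis form, was 4.37, 4.56, 3.98 and 4.97 in eMC empty, all below the dip, and 8.01, 8.20, 7.90 and 6.77 in eMC CIC-DUX4. It lay above the dip on the 3 eMC CIC-DUX4 arrays that have one, and below it on 4 of 6 CDS and 2 of 6 ES arrays. The deposited scale called it higher in eMC CIC-DUX4 (3.25 ± 0.42, adjusted p = 0.000162) and the quantile scale lower (-1.07 ± 0.19, adjusted p = 0.000379), so its direction is not settled; with the median shift it was not called (1.69, adjusted p = 0.296). Cox6a2 in eMC CIC-DUX4 (7.80 to 8.38, against 3.59 to 4.39 in eMC empty) was likewise called higher only as deposited (4.11 ± 0.34, adjusted p = 1.22e-05; quantile 0.27 ± 0.26, adjusted p = 0.409). This call also ended in the fit of all 4 groups (adjusted p = 0.0773) and with the median shift (adjusted p = 0.170). Ndufa4l2, an alternative form of Ndufa4 known from hypoxia, was 2.05 to 7.28 over all arrays, highest in the 3 arrays of high median and in CDS 4; it was called higher in CDS tumors than in eMC CIC-DUX4 by quantile alone (1.30 ± 0.41, adjusted p = 0.0192; deposited 0.27 ± 1.22). Cox4i2, the lung and hypoxia form of subunit 4, and Cox7b2 failed the filter: outside the arrays of high median they did not exceed 3.92 and 2.92.

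The 70 common subunits lay above the dip on every array that has one, apart from Sdhc in CDS 6. Their place among all genes was high, 67 of the 77 tested members (87.0%) being in the 10% of genes of highest level (1235 genes), and the median member stood at the 93.8 to 96.9 percentile of an array. Comparisons of bright genes turn on the scaling here, so that 10% serves as the background. The common subunits Ndufs1, Ndufs4, Sdhc and Sdhd lie outside it, so for them it is not a background of like level.

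In eMC CIC-DUX4 against eMC empty, 0 of 70 common subunits were called higher and 22 lower as deposited, with a median log2 fold change of -0.86. Of all 12343 genes, 46.4% were called higher and 4.62% lower (median 2.07, which is 0.01 by quantile), but of the 1235 brightest, 0.162% and 39.8% (median -0.90): the share of the members lay near that of other bright genes. By quantile, 1 was called higher and 0 lower (median 0.13), against 8.13% and 4.81% of all genes, and 0.486% and 0.405% of the brightest (median -0.02). The 22 were 11 of 17 subunits of complex V, 8 of 11 of complex IV and 3 of 31 of complex I. Cox5b, a nuclear subunit of complex IV, had the lowest value, -1.51 ± 0.18 (adjusted p = 0.000104), which became -0.24 by quantile, and Cox6a1 moved from -1.47 to 0.03. Core subunits of ATP synthase did the same: Atp5b went from -1.31 to 0.00 and Atp5a1 from -1.23 to 0.04. In all, 57 of 77 members changed sign between the scales, as did 5456 of all 12343 genes.

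The single call by quantile was Sdhd, a membrane anchor of complex II, named here after its value was seen. It was 11.43, 11.35, 11.29 and 11.36 in eMC empty and 12.50, 12.18, 12.22 and 12.01 in eMC CIC-DUX4, without overlap. Its fold change was 0.87 ± 0.16 as deposited (adjusted p = 0.00142, under 2-fold) and 1.22 by quantile (adjusted p = 6.78e-06). In CDS tumors Sdhd was 10.71 to 11.91 and lay below all eMC CIC-DUX4 arrays (-0.93 ± 0.28, adjusted p = 0.0344; quantile -1.33, called).

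Between CDS tumors and eMC empty, 23 common subunits were called lower and 0 higher as deposited, with a median of -0.88. Of all genes 5.81% were called lower and 14.6% higher (median 0.89, by quantile -0.10), and of the brightest 19.8% and 2.75% (median -0.55). By quantile, 2 were called lower and 0 higher (median -0.39), against 19.2% and 17.6% of all genes, and 6.88% and 3.72% of the brightest (median -0.12). These 2, Ndufs4 and Sdha, passed on both scales. Medians by complex were -1.41 for II, -1.22 for III, -0.97 for I, -0.88 for IV and -0.70 for V; by quantile they were -0.91, -0.69, -0.46, -0.37 and -0.17, in the same order. The differences between complexes were not tested.

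**Figure D3:**
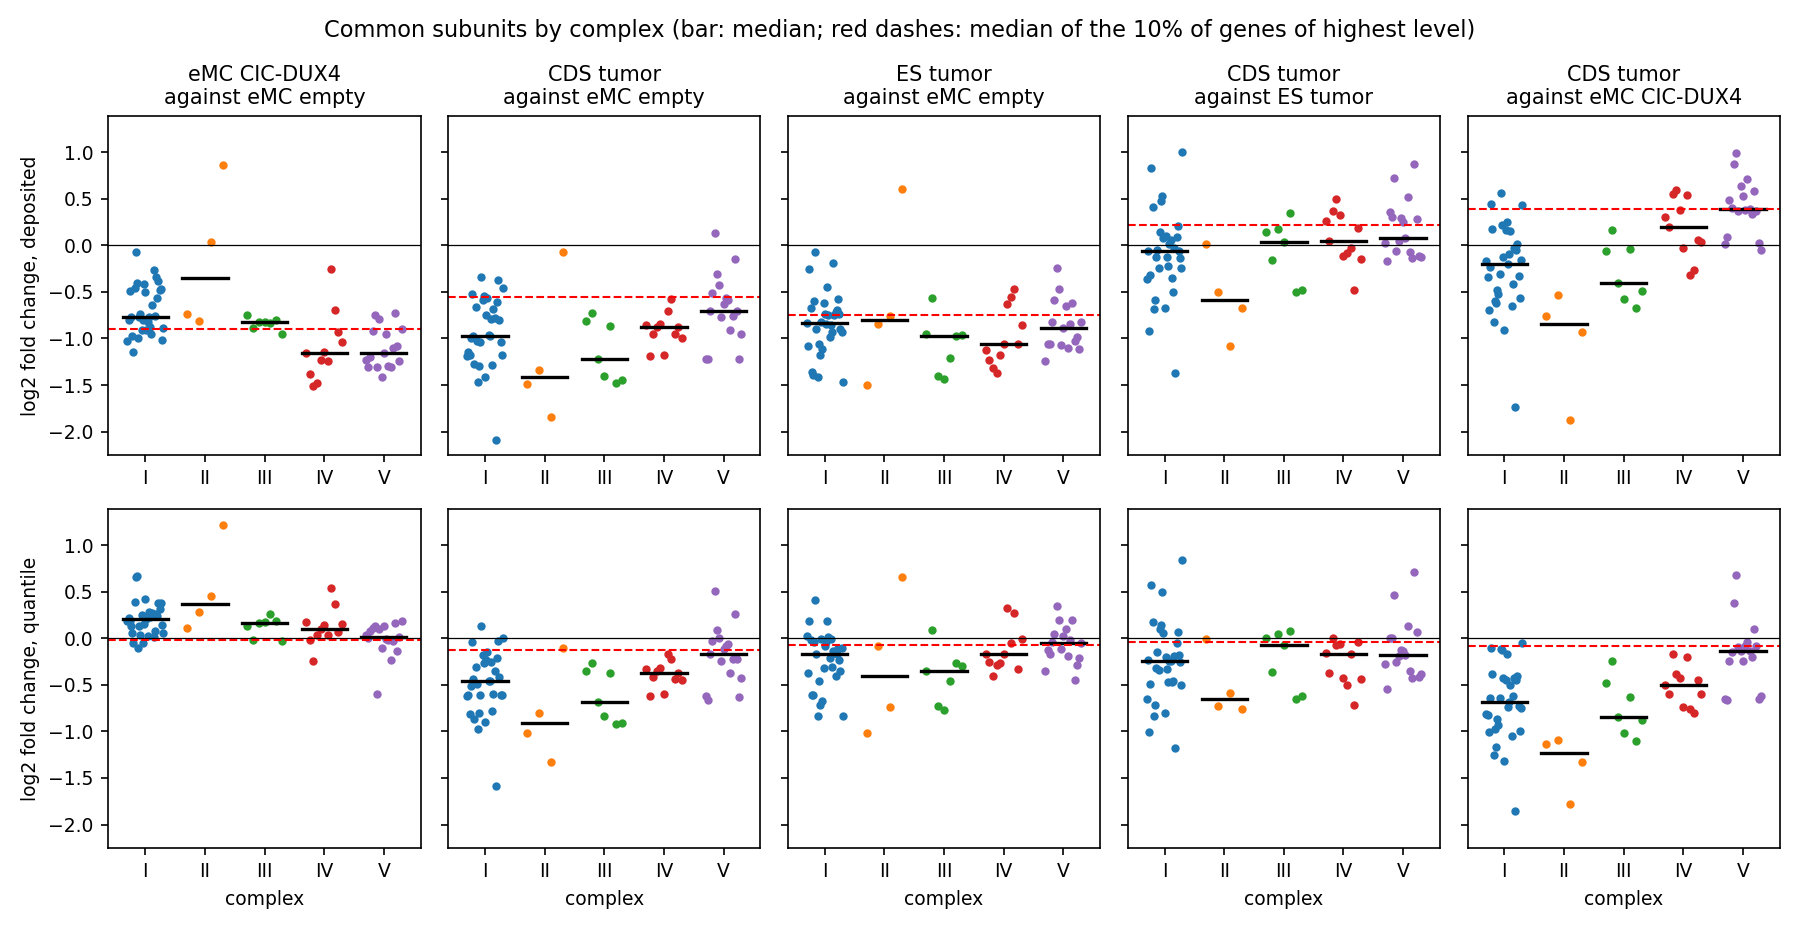
Log2 fold changes of the 70 common subunits by complex in the 5 comparisons, on the deposited scale (top) and after quantile normalization (bottom); each point is 1 gene, black bars are medians and red dashes the median of the 1235 brightest genes. In CDS tumors against eMC CIC-DUX4 the medians run from -0.84 (complex II) to 0.39 (complex V) as deposited and from -1.23 to -0.14 by quantile.

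Ndufs4, an accessory subunit of complex I whose loss in children causes Leigh syndrome, had the lowest fold change of the 70 common subunits in CDS tumors against eMC empty. Its signal was 12.57, 12.64, 12.55 and 12.32 in eMC empty and 12.10, 11.98, 12.26 and 12.37 in eMC CIC-DUX4. In CDS 1 to 6 it was 11.36, 10.53, 11.41, 11.10, 8.32 and 9.91, and in the ES tumors 12.03, 11.65, 11.44, 12.13, 11.81 and 11.79. All CDS arrays lay below all other arrays, and CDS 5 and 6 were the lowest. The fold change in CDS tumors was -2.08 ± 0.53 against eMC empty (quantile -1.59; adjusted p = 0.00996), -1.37 ± 0.44 against ES tumors (quantile -1.18; adjusted p = 0.0342) and -1.74 ± 0.52 against eMC CIC-DUX4 (quantile -1.85; adjusted p = 0.0338).

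CDS 5 and 6 also had the largest 3' excess of Actb, 1.16 and 1.28, against 0.31 to 0.76 in CDS 1 to 4; the part of RNA quality in the Ndufs4 result was not tested. Without CDS 5 the difference from ES tumors was -0.95, under 2-fold, with an adjusted p of 0.0202. Leaving out CDS 6 ended the call against ES tumors (adjusted p = 0.0649), as did leaving out ES 41, 48, 49 or 51 (adjusted p = 0.0614 to 0.0665). Against eMC CIC-DUX4 the call ended without CDS 6 (adjusted p = 0.0685) or any eMC CIC-DUX4 array (adjusted p = 0.0727 to 0.0834), and without all arrays of high median (adjusted p = 0.156), each by limma. With the median shift the calls ended against eMC empty (-2.79, adjusted p = 0.0837) and eMC CIC-DUX4 (-0.89, adjusted p = 0.822), and without a trend against ES tumors (adjusted p = 0.0704) and eMC CIC-DUX4 (adjusted p = 0.0763). The other 2 probe sets of Ndufs4 had means of 3.37 and 2.31 in CDS tumors and 2.79 and 2.44 in eMC empty. Of these, 1 lay below the dip on every array that has one. The other lay below it on 5 of 6 CDS, 1 of 6 ES, 2 of 3 eMC CIC-DUX4 and 4 of 4 eMC empty arrays. By limma the mean of the probe sets was not called in CDS tumors against eMC empty (-0.55, adjusted p = 0.547) or eMC CIC-DUX4 (-1.34, adjusted p = 0.237).

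**Figure D4:**
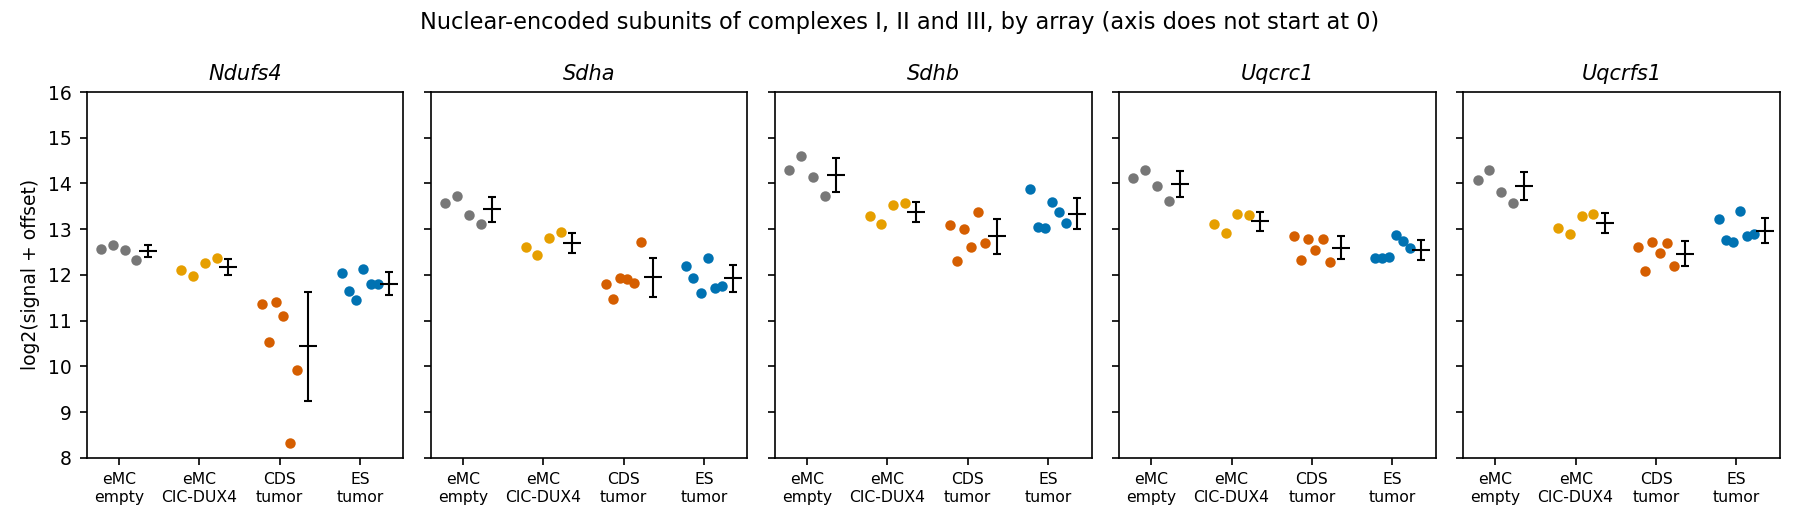
Log2(signal + offset) of Ndufs4, Sdha, Sdhb, Uqcrc1 and Uqcrfs1 by group, 1 point per array, with group mean and SD at the right of each group; the axis starts at 8. Ndufs4 in the 6 CDS tumors (8.32 to 11.41) lies below all other arrays, and Sdha in both kinds of tumor (11.48 to 12.72) lies below all eMC empty arrays.

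Complex II couples the citrate cycle to the chain. Sdha, its flavoprotein, was 13.57, 13.72, 13.31 and 13.12 in eMC empty, 12.61, 12.44, 12.81 and 12.93 in eMC CIC-DUX4, 11.80, 11.48, 11.94, 11.90, 11.82 and 12.72 in CDS tumors and 12.19, 11.92, 11.60, 12.37, 11.72 and 11.76 in ES tumors. All tumors lay below all eMC empty arrays. It was lower than in eMC empty in CDS tumors (-1.49 ± 0.29, quantile -1.02; adjusted p = 0.00171) and in ES tumors (-1.5 ± 0.19, quantile -1.02; adjusted p = 7.91e-05), comparisons that share the eMC empty arrays. The CDS call ended with the median shift (-2.20, adjusted p = 0.0684), and by quantile without CDS 2 it fell short of 2-fold (-0.97). CDS and ES tumors differed by 0.02 ± 0.25 (adjusted p = 0.973). Sdhb, the iron-sulfur subunit, was lower in CDS tumors than in eMC empty as deposited (-1.34 ± 0.26, adjusted p = 0.00157; quantile -0.80), a call that ended with the median shift (adjusted p = 0.0718). Sdhc, an anchor, was 4.55 in CDS 6 and 10.59 to 11.67 in the other CDS tumors, and its change of -1.84 ± 1.02 missed the threshold (adjusted p = 0.197).

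In complex III, Uqcrfs1, the Rieske iron-sulfur protein, was 12.60, 12.09, 12.72, 12.48, 12.71 and 12.19 in CDS tumors and 14.07, 14.29, 13.82 and 13.58 in eMC empty, without overlap (-1.48 ± 0.25, adjusted p = 0.000497; quantile -0.92). The core protein Uqcrc1 was lower by a like amount (-1.40 ± 0.24, adjusted p = 0.000569; quantile -0.84), as were Uqcrq, a small subunit (-1.44; quantile -0.91), and Ndufa8 of complex I (-1.47; quantile -0.98). With the median shift Uqcrfs1 (adjusted p = 0.0579) and Uqcrc1 (adjusted p = 0.0603) were not called. The core subunits Ndufs1 (-0.68 ± 0.35, adjusted p = 0.167) and Ndufv1 (-1.04 ± 0.38, adjusted p = 0.0595) were not called.

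In ES tumors against eMC empty, 26 common subunits were called lower and 0 higher as deposited (median -0.89), against 10.9% and 30.1% of all genes (median 0.64, by quantile -0.04) and 36.4% and 1.86% of the brightest (median -0.75). By quantile 1 was called lower, Sdha, and 0 higher (median -0.17), against 18.9% and 17.3% of all genes and 12.1% and 3.72% of the brightest (median -0.07). Ndufv3, a small subunit of the NADH-binding module, was lower as deposited (-1.46 ± 0.24, adjusted p = 0.000410; quantile -0.84), as were Uqcrc1 (-1.44; quantile -0.77) and Ndufa8 (-1.41; quantile -0.83).

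Few common subunits were called between the 2 kinds of tumor. As deposited, 1 of 70 was called higher in CDS tumors and 1 lower (median -0.03), against 11.2% and 9.58% of all genes and 10.7% and 3.40% of the brightest (median 0.22). By quantile, 0 were called higher and 2 lower (median -0.24), against 16.9% and 16.2% of all genes and 8.66% and 4.94% of the brightest (median -0.04). The gene called higher was Ndufv3, 12.90 to 14.28 in CDS tumors and 11.94 to 12.99 in ES tumors with overlap (1.00 ± 0.26, adjusted p = 0.0120; quantile 0.84, not called). Those called lower were Ndufs4 and, by quantile alone, Ndufa11 (-0.92 ± 0.30; quantile -1.0, adjusted p = 0.0149).

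Against eMC CIC-DUX4, 1 common subunit, Ndufs4, was called lower in CDS tumors as deposited and 0 higher (median -0.03), against 12.7% and 5.14% of all genes (median -0.92, by quantile -0.06) and 3.16% and 13.8% of the brightest (median 0.39). By quantile, 11 were called lower and 0 higher (median -0.61), against 20.2% and 16.8% of all genes and 8.50% and 4.05% of the brightest (median -0.09). The 11 were Ndufa5, Ndufa7, Ndufa11, Ndufb4, Ndufc2 and Ndufs4 of complex I, Sdha, Sdhb and Sdhd of complex II, and Uqcrc1 and Uqcrfs1 of complex III, with 0 of complexes IV and V. By complex the medians were -0.84 for II, -0.40 for III, -0.20 for I, 0.20 for IV and 0.39 for V as deposited, and -1.23, -0.85, -0.69, -0.51 and -0.14 by quantile. Sdhb, for example, was 12.30 to 13.38 in CDS tumors and 13.11 to 13.57 in eMC CIC-DUX4 (-0.53 ± 0.23, adjusted p = 0.109; quantile -1.09 ± 0.11, adjusted p = 6.61e-06).

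Other genes of the pathway came from lists, to be read against the shares of all genes called: in CDS tumors against eMC empty 14.6% higher and 5.81% lower, and 17.6% and 19.2% by quantile. Of 15 tested genes of the citrate cycle and pyruvate dehydrogenase, 9 were called lower and 1 higher in CDS tumors against eMC empty as deposited (median -1.07), and 4 and 1 by quantile (median -0.77). In ES tumors 7 were lower and 0 higher (all genes 10.9% and 30.1%), and 1 and 0 by quantile (18.9% and 17.3%). In eMC CIC-DUX4, 1 was lower and 0 higher (all genes 4.62% and 46.4%), and 0 and 0 by quantile (4.81% and 8.13%). Of the 1235 brightest genes, 19.8% were called lower and 2.75% higher in CDS tumors as deposited (6.88% and 3.72% by quantile). For ES tumors these shares were 36.4% and 1.86% (12.1% and 3.72%), and for eMC CIC-DUX4 39.8% and 0.162% (0.405% and 0.486%). Lists of bright genes are to be read against these shares too. Of 37 assembly factors, 1 was called lower and 0 higher in CDS tumors against eMC empty as deposited, but 20 and 0 by quantile (median -0.04 and -1.05). Among 9 electron and nucleotide carriers, 4 were lower in CDS tumors as deposited and 2 by quantile. Cycs, cytochrome c, which carries electrons to complex IV, was lower on both scales (-1.99 ± 0.26, quantile -1.36; adjusted p = 4.80e-05).

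Of 12 tested regulators of mitochondrial biogenesis, 1 was called higher and 1 lower in CDS tumors against eMC empty as deposited, and 2 and 2 by quantile. Their median log2 fold change was 0.70 as deposited and -0.11 by quantile, and the lowest values were -1.16 and -3.39. By quantile without the fold threshold, 2 were higher and 5 lower. Called higher on both scales was Esrrg, an orphan nuclear receptor that acts on oxidative genes. Esrrg was 9.78, 10.37, 10.70, 9.97, 6.30 and 12.03 in CDS tumors, 7.27 to 8.38 in eMC CIC-DUX4, 2.19 to 3.36 in ES tumors and 3.00 to 3.84 in eMC empty. It was higher in CDS tumors than in eMC empty by 6.41 ± 1.04 (quantile 5.35; adjusted p = 0.000360) and than in ES tumors by 7.15 ± 0.99 (quantile 6.40; adjusted p = 6.46e-05). Of 12 genes of the hypoxia response, 6 were called higher and 1 lower in CDS tumors against eMC empty, on both scales, where all genes gave 14.6% and 5.81% as deposited and 17.6% and 19.2% by quantile. Cycs and Esrrg were named after their values were seen.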

How the data were processed

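Labelled RNA of 20 mouse samples was hybridised to Affymetrix arrays, 1 per sample. The authors deposited log2 signals of 45141 probe sets; MAS5 is named in the submitters' processing notes, with no version or settings in the sources used here. Control probe sets (104) were dropped. Signals were taken back to the linear scale and used as log2(signal + 1.42305), an offset that understates folds of dim genes. The filter required a signal over the array's own median on at least 4 arrays, and the brightest probe set stood for its gene. limma 3.58.1 in R 4.3.3 (lmFit, then eBayes with a trend, two-sided) was run on the 2 groups of each comparison, after the code was tested on simulated data. How many arrays there are limits the precision. No arrays held identical values. Members and lists were chosen with earlier results of these data known. Genes were named by rule: all isoforms with their partners, 9 core subunits, the called members with the largest changes whose groups do not overlap (up to 6 per direction), and the 5 genes most like Cox6b2. Alternatives were other scalings, offsets, filters, fits and thresholds, a replicate block, and arrays left out.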

Additional observations from a re-analysis of the deposited data

Results flagged for a closer look

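In 4 of 112 checks an array stood apart from the others of its group by Dixon's criterion, where chance gives about 1 in 20. Cox6b2 was 6.79 in ES 51, while the other ES tumors reached at most 3.41. Cox6b2 was 13.07 in CDS 1, above the next CDS tumor at 12.50. Sdha was 12.72 in CDS 6, above the next CDS tumor at 11.94. Cox6a1, the common form of subunit 6a, was 15.09 in ES 41, above the next ES tumor at 14.59. The 4 values came from 4 different arrays.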

How the results depend on the processing

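Most calls of lower common subunits ended by quantile. The counts below are of the 77 tested members. With no fold threshold, 1472 of all 12343 genes and 1090 of the 1235 brightest were lower in eMC CIC-DUX4 than in eMC empty. Against eMC empty the numbers were 868 and 374 in CDS tumors, and 2442 and 804 in ES tumors. Shares of all genes are given above as deposited and by quantile, and not for the other alternatives. Members called lower in eMC CIC-DUX4 against eMC empty numbered 23 as deposited, 2 by quantile, 0 with each array shifted to the same median, 65 with no fold threshold, 14 without the arrays of high median and 1 by quantile without those; leaving out 1 array gave 18 to 36 (the latter without eMC empty 7). Members called higher numbered 3, 0 with the median shift and 1 by quantile without the high arrays; leaving out 1 array gave 3. In CDS tumors against eMC empty, 25 were lower as deposited, 3 by quantile, 1 with the median shift, 16 without a trend, 40 with no fold threshold and 2 by quantile without CDS 2; leaving out 1 array gave 21 to 37. In ES tumors against eMC empty, 28 were lower, 2 by quantile, 10 with the median shift and 65 with no fold threshold, and 16 (without eMC empty 5) to 38 (without eMC empty 7) leaving out 1 array. The 1 higher became 0 by quantile, and 2 with the mean of probe sets or no fold threshold, and 0 to 2 leaving out 1 array. In CDS against ES tumors, the 2 higher became 1 by quantile (with or without CDS 2), with the median shift and without a trend, and 1 to 3 leaving out 1 array. The 1 lower became 2 by quantile, 7 with the median shift, 0 without a trend, 4 with no fold threshold and 0 to 2 leaving out 1 array. In CDS tumors against eMC CIC-DUX4, the 1 higher became 2 by quantile, 3 with no fold threshold and 1 to 3 leaving out 1 array. The 2 lower became 12 by quantile, 0 with the median shift, 1 without a trend or without the arrays of high median, 5 with no fold threshold, 11 by quantile without the high arrays, and 1 to 3 leaving out 1 array. The cause was not tested.

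With the replicate number as a block, CDS tumors against eMC CIC-DUX4 gave 14 higher and 7 lower members and turned Ndufa4l2 to -2.53. Only numbers 5 and 6 occur in both groups, so that fit rests on the arrays with these numbers. The other arrays add nothing to its difference, and the share of all genes called in it is not given, so no conclusion is drawn from these counts. Whether the numbers pair the samples is not settled. Same-numbered arrays correlated at 0.38, -0.19 and 0.38 in the eMC groups (numbers 5, 6 and 7). The correlations were -0.19, 0.49 and 0.09 for CDS tumors with eMC empty, and 0.28 and 0.05 for CDS tumors with eMC CIC-DUX4. The same number was the best match for eMC 5 and 7, CDS 5 with eMC empty and CDS 6 with eMC CIC-DUX4. It was not for the others. The arrays of high median were left out together with quantile normalization after seeing the data. Another offset, or a stricter filter or none, changed 0 of 115 named values in call or direction. Signal over background limits the dim isoforms, whose fitted folds have no exact size.

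Quantile normalization turned the sign, in eMC CIC-DUX4 against eMC empty, of Cox7a1 (0.61), Cox8c (-1.07), Ndufa4l2 (-0.67), Cox4i1 (0.18), Cox6a1 (0.035), Cox6b1 (0.10), Cox7a2 (0.035), Cox8a (0.072), Ndufa4 (0.16), Ndufs1 (0.019), Ndufv1 (0.38), Sdha (0.11), Sdhb (0.29), Uqcrc1 (0.18), Uqcrfs1 (0.18) and Atp5a1 (0.037). It turned Cox8c (-0.23) for CDS tumors against eMC empty. It turned Cox6b2 (-0.014), Cox8c (-0.78) and Cox7a2 (0.33) for ES tumors against eMC empty. It turned Cox8c (0.54), Cox4i1 (-0.16), Cox6a1 (-0.069), Cox6b1 (-0.061), Cox8a (-0.041), Sdha (-0.0025), Uqcrc1 (-0.067), Cox5a (-0.37) and Atp5a1 (-0.27) for CDS against ES tumors. It turned Cox6a2 (1.45), Cox8c (0.84), Cox4i1 (-0.51), Cox6a1 (-0.39), Cox6b1 (-0.43), Cox7a2 (-0.20), Cox8a (-0.45), Ndufa4 (-0.60), Cox5a (-0.60), Atp5a1 (-0.66) and Atp5b (-0.66) for CDS tumors against eMC CIC-DUX4. Quantile normalization without the 3 arrays of high median turned the sign, in eMC CIC-DUX4 against eMC empty, of Cox7a1 (0.66), Cox8c (-0.95), Ndufa4l2 (-0.83), Cox4i1 (0.24), Cox6a1 (0.023), Cox6b1 (0.12), Cox7a2 (0.039), Cox8a (0.11), Ndufa4 (0.15), Ndufs1 (0.060), Ndufv1 (0.40), Sdha (0.14), Sdhb (0.30), Uqcrc1 (0.18), Uqcrfs1 (0.21), Atp5a1 (0.0019) and Atp5b (0.0050). It turned Cox8c (-0.22) for CDS tumors against eMC empty. It turned Cox8c (0.56), Cox4i1 (-0.20), Cox6a1 (-0.074), Cox6b1 (-0.016), Cox8a (-0.062), Uqcrc1 (-0.085), Cox5a (-0.35) and Atp5a1 (-0.25) for CDS against ES tumors. It turned Cox6a2 (2.15), Cox8c (0.73), Cox4i1 (-0.61), Cox6a1 (-0.38), Cox6b1 (-0.40), Cox7a2 (-0.20), Cox8a (-0.50), Ndufa4 (-0.57), Cox5a (-0.57), Atp5a1 (-0.60) and Atp5b (-0.69) for CDS tumors against eMC CIC-DUX4. A shift of each array to the same median turned the sign, in eMC CIC-DUX4 against eMC empty, of Ndufa4l2 (-0.14). It turned Ndufa4l2 (0.24) and Ndufs1 (0.12) for ES tumors against eMC empty. It turned Cox7a1 (-0.47), Cox4i1 (-0.75), Cox6a1 (-0.52), Cox6b1 (-0.69), Cox8a (-0.83), Sdha (-1.0), Uqcrc1 (-0.97), Cox5a (-0.97) and Atp5a1 (-0.99) for CDS against ES tumors. It turned Cox6a2 (0.38), Ndufs1 (0.43), Ndufv1 (0.28), Sdha (0.094), Sdhb (0.32), Uqcrc1 (0.27) and Uqcrfs1 (0.18) for CDS tumors against eMC CIC-DUX4. Leaving out the arrays of high median turned the sign, in eMC CIC-DUX4 against eMC empty, of Cox7a1 (0.10) and Ndufa4l2 (-0.68). It turned Cox7a2 (0.024) for CDS against ES tumors. It turned Cox6a2 (0.095), Cox8a (-0.057), Ndufa4 (-0.0073), Atp5a1 (-0.011) and Atp5b (-0.025) for CDS tumors against eMC CIC-DUX4. Taking the mean of probe sets turned the sign, in CDS against ES tumors, of Cox5a (-0.065). It turned Cox5a (-0.033) for CDS tumors against eMC CIC-DUX4. Leaving out 1 array at a time turned the sign, in eMC CIC-DUX4 against eMC empty, of Cox7a1 (-0.20 to 0.00082). With ES tumors against eMC empty it did so for Cox6b2 (-0.40 to 0.48), Ndufa4l2 (-0.29 to 0.10) and Ndufs1 (-0.34 to 0.012). With CDS against ES tumors it did so for Cox7a1 (-0.22 to 1.65), Cox7a2 (-0.24 to 0.062), Ndufv1 (-0.34 to 0.16), Sdha (-0.14 to 0.11), Uqcrc1 (-0.011 to 0.10), Cox5a (-0.12 to 0.17), Atp5a1 (-0.093 to 0.14) and Atp5b (-0.36 to 0.0012). With CDS tumors against eMC CIC-DUX4 it did so for Cox6a2 (-1.52 to 0.45), Ndufa4l2 (-0.60 to 1.15), Cox8a (-0.045 to 0.15), Ndufa4 (-0.084 to 0.15), Atp5a1 (-0.10 to 0.13) and Atp5b (-0.10 to 0.26).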
